A study of Mus musculus with 2 samples.

Results

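Of the 813 cells that the authors annotated as fibroblasts in an inflamed mouse aorta, 481 held at least 1 transcript of Chl1, a gene of neural cell adhesion, and these Chl1 fibroblasts are described here. They were 59.2% (55.7 to 62.6) of the fibroblasts of their library, and they are 481 of the 10477 cells of both libraries together. They were chosen by their Chl1 counts alone and set against the 332 fibroblasts of the same library with 0 Chl1 transcripts and against 868 fibroblasts of a control library. The inflamed tissue came from wild-type C57BL/6J mice that had received LCWE, a Lactobacillus casei cell wall extract, in the peritoneum 2 weeks earlier, and the control tissue came from such mice that had received PBS, a saline buffer. In mice LCWE inflames the coronary arteries and the abdominal aorta, and it is used to model Kawasaki disease, a vasculitis of childhood. The abdominal aortas of 7 LCWE mice and of 9 PBS mice were pooled into 1 library each, dissociated with enzymes and sequenced as 3′ droplet libraries.

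CHL1, the close homologue of L1, is a cell surface protein of the immunoglobulin superfamily. It is best known from the nervous system, where it guides neurite growth and cell migration, binds ankyrins and ezrin inside the cell and works with neuropilin 1 and integrin β1 at the membrane. Fibroblasts of the vessel wall sit mainly in the adventitia, the outer coat, where they make collagen and elastic matrix. In inflamed vessels they are known to make chemokines, complement and acute phase proteins, which attract and instruct leukocytes. The other genes used to mark these cells were Saa3, an acute phase serum amyloid made outside the liver, Crocc2, a relative of the protein that builds the ciliary rootlet, and the transcription factors Wt1, known from mesothelium and the kidney, and En1, known from the embryonic dermomyotome and the fibroblasts that descend from it.

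Chl1 lies on chromosome 6, from 103510586 to 103750211 on the plus strand (GENCODE vM21, GRCm38), and is protein coding. Its promoter and those of 3 genes with among the highest ratios over the other LCWE fibroblasts are shown, because these genes were high in the same cells. Each sequence is the RefSeq promoter (GRCm38.p6), from 250 bases before to 50 bases after the start of transcription, and capitals mark matches on either strand to 4 motif patterns: GGG and CC with 5 bases of any kind between them for NF-kB, TTGCNNAA for C/EBP, TTCNNNGAA for STAT, and GAAA given 2 times with 2 bases of any kind between for the interferon-stimulated response element.
Chl1, chr6:103510626-103510925, plus strand: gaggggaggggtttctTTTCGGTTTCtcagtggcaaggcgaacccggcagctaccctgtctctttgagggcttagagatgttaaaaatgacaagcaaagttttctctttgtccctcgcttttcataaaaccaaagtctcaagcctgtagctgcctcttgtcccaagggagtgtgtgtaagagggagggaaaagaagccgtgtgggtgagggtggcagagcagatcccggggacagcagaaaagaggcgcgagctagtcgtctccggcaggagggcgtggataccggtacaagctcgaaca
Saa3, chr7:46715627-46715926, minus strand: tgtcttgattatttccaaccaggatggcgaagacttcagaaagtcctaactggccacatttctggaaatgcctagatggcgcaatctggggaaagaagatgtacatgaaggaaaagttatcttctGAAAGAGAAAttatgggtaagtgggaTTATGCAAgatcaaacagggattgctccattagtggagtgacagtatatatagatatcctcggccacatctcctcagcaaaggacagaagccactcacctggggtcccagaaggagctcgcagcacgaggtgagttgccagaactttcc
Lcn2, chr2:32387690-32387989, minus strand: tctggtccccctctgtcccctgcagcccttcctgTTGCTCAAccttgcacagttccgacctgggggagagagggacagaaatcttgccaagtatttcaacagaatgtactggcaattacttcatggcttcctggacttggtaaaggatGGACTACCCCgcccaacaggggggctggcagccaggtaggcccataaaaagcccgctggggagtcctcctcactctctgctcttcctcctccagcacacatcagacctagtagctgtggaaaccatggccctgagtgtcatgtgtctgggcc
Cxcl14, chr13:56296502-56296801, minus strand: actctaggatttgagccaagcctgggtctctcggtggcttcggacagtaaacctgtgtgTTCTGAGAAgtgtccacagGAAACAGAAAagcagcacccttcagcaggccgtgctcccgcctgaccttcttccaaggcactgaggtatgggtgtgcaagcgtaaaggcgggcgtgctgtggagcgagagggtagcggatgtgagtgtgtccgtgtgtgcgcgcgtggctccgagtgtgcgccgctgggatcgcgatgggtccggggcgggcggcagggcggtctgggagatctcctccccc
The Chl1 promoter held a match to the interferon pattern that began 234 bases before the start and no match to the other 3. The Saa3 promoter held an interferon match 125 bases and a C/EBP match 99 bases before the start. The Lcn2 promoter held a C/EBP match 216 bases and an NF-kB match 102 bases before it, and the Cxcl14 promoter a STAT match 191 bases and an interferon match 172 bases before it. No capitals overlap in these 4 promoters. Promoters of other genes were searched as well, and among those only that of Rsad2 held the interferon pattern. It was absent from those of Lrg1, Crocc2, En1, Nfasc, Ifi44, Kng2, Serpinb2, Wnt4 and Tnfsf8, among others. The 4 printed promoters therefore do not stand for the genes high in Chl1 fibroblasts. Of 32851 promoters of the same length, 50.8% held the NF-kB pattern, 10.8% the C/EBP pattern, 8.30% the STAT pattern and 3.44% the interferon pattern, and a match is a run of letters, not a shown binding site.

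Counts are of unique molecular identifiers (UMIs, each standing for 1 captured transcript), summed over the cells of a group and given per 1e6 UMIs of that group (CPM). Each group comes from 1 pooled library, cells are not replicates, and the rule that chose the cells used counts of the same cells. No test was therefore made, and the brackets give 95% intervals that cover counting error only. The 481 Chl1 fibroblasts held 6987638 UMIs, the 332 LCWE fibroblasts without Chl1 held 2996667 and the 868 PBS fibroblasts held 6084431. The median cell had 14431 UMIs and 3686 genes among Chl1 fibroblasts, 7502.5 UMIs and 2600.5 genes among LCWE fibroblasts without Chl1, and 6215 UMIs and 2223 genes among PBS fibroblasts. The median mitochondrial share of UMIs was 3.34%, 3.40% and 3.32% in the same order of groups. The libraries shared 8 cell barcodes, 1 of them among the Chl1 fibroblasts. In the deposited table the doublet call is negative for all cells, and the median doublet score, from a caller not given in the sources used here, was 0.0431 in Chl1 fibroblasts, 0.0370 in LCWE fibroblasts without Chl1 and 0.0282 in PBS fibroblasts.

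Chl1 itself was abundant in the cells that had it. Chl1 fibroblasts held 2688 Chl1 UMIs, a mean of 5.59 and a median of 3 per cell, with a maximum of 37, which made 385 CPM over the group. Over all LCWE fibroblasts Chl1 stood at 269 CPM. Among the 868 PBS fibroblasts 0 had a Chl1 UMI, which allows a share of cells with a UMI of up to 0.346% by the limit of 3 counts and of up to 0.424% by the exact 95% interval, and the whole PBS library of 5386 cells had 0 Chl1 UMIs. Since the rule used these counts, the levels are a description. Of the LCWE fibroblasts, 332 had 0 Chl1 UMIs, 111 had 1, 80 had 2, 129 had 3 to 5, 95 had 6 to 10 and 66 had 11 or more. The 66 cells at the top held 44.3% of the Chl1 UMIs.

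Whether a fibroblast was counted as a Chl1 fibroblast moved with its depth. The share with a Chl1 UMI was 30.1% (23.1 to 37.7) in the 163 LCWE fibroblasts with the fewest UMIs and 82.8% (76.1 to 88.3) in the 163 with the most, the ends of 5 depth groups. The Chl1 level over these groups lay between 191 and 326 CPM. With each cell thinned to 4000 UMIs, 309 of 708 LCWE fibroblasts, 43.6% (40.0 to 47.4), had a Chl1 UMI. Thinning left out 25 Chl1 fibroblasts and 80 LCWE fibroblasts without Chl1 that had fewer UMIs. The group without Chl1 may therefore hold cells whose Chl1 was not captured. The median depth of the cells with 0, 1 and 2 Chl1 UMIs was 7502.5, 9911 and 13508 UMIs.

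**Figure D1:**
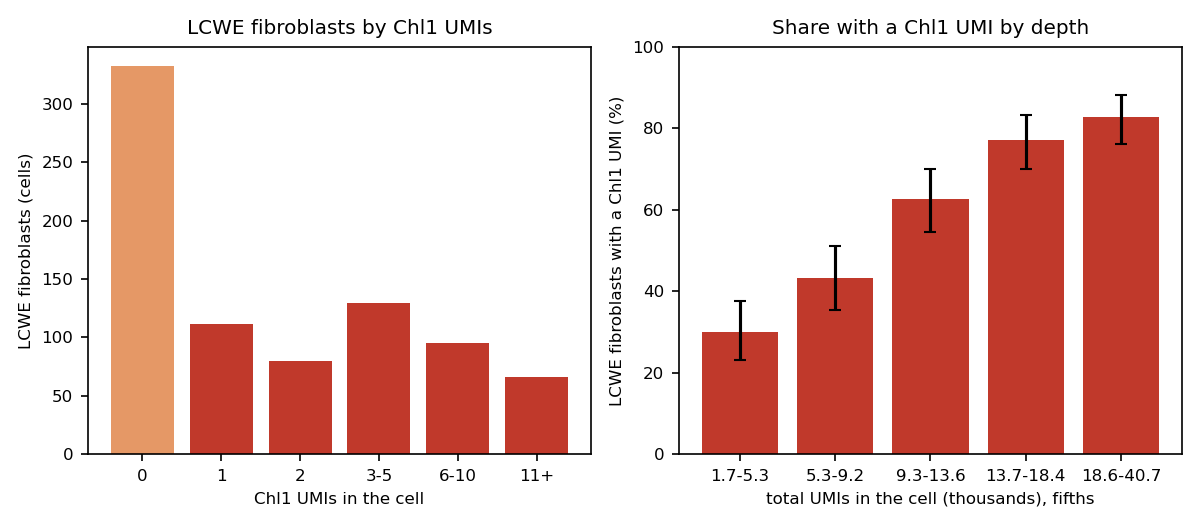
The left panel counts the 813 LCWE fibroblasts by the number of Chl1 UMIs in the cell, and the right panel gives the share with a Chl1 UMI in 5 groups of total UMIs per cell, with 95% Clopper-Pearson intervals. The largest bar is the 332 cells with 0 Chl1 UMIs, and the share is 30.1% in the shallowest group and 82.8% in the deepest.

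The LCWE library held 2964 Chl1 UMIs in all, in 546 cells, and fibroblasts had 90.7% of them. In LCWE T, NK and innate lymphoid cells, which serve as a measure of free RNA, 16 of 2198 cells, 0.728% (0.417 to 1.18), had a Chl1 UMI, at 1.54 CPM and a median depth of 3986 UMIs, against the 14431 UMIs of the Chl1 fibroblasts. Of all LCWE leukocytes, 31 of 3534, 0.877%, had one. Some stromal cells outside the fibroblast class had it more often than leukocytes. Among proliferating cells of the class that the authors named VSMC_2, with a median of 26038 UMIs, 12 of 41 cells, 29.3% (16.1 to 45.5), had 122 Chl1 UMIs between them. In those 12 cells Saa3 stood at 3143 CPM and Acta2, the smooth muscle actin, at 186 CPM, against 1035 CPM of Saa3 and 3419 CPM of Acta2 in the 29 without Chl1. The 12 cells held 10 Wt1 UMIs and 6 En1 UMIs, and the other 29 held 0 of both. In the other VSMC_2 cells, with a median of 19942 UMIs, the share was 17 of 283, 6.01% (3.54 to 9.44).

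The Chl1 fibroblasts carried the transcripts of fibroblasts. Pdgfra, the receptor that marks fibroblasts, had a UMI in 87.9% of Chl1 fibroblasts, 75.9% of LCWE fibroblasts without Chl1 and 80.2% of PBS fibroblasts. With each cell thinned to 4000 UMIs the shares were 62.5%, 59.5% and 72.5% in the same order, and PBS fibroblasts had the highest. The proteoglycan gene Dcn was found in 99.6% of Chl1 fibroblasts and the collagen gene Col1a1 in 99.8%. The 10 fibroblast identity genes summed to 1020 UMIs per Chl1 fibroblast, against 655 per LCWE fibroblast without Chl1, 641 per PBS fibroblast and 2.85 per LCWE lymphocyte, counts that follow depth. Per 1e6 UMIs they made 70235 CPM in Chl1 fibroblasts, 72543 CPM in LCWE fibroblasts without Chl1 and 91494 CPM in PBS fibroblasts, so that Chl1 fibroblasts had the lowest level. Col3a1, a fibrillar collagen, stood at 28396 CPM in Chl1 fibroblasts, 25935 in LCWE fibroblasts without Chl1 and 26580.1 in PBS fibroblasts, and Col1a1 at 12112, 12652 and 19429.8 CPM in that order.

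Most defining markers of the cell types that Chl1 or Wt1 could point to were scarce. Of the glial markers, Sox10, Cdh19, Ngfr, Gfap and Foxd3 had 0 UMIs in the 481 cells, while S100b had 82 and Mbp 40. Of the mesothelial markers, Msln, Upk3b, Upk1b, Lrrn4, Muc16 and Krt8 had 0 UMIs there, Bnc1 had 1, Krt7 had 2, Krt18 had 7 and Krt19 had 14. The rest of that list was found in more of them, Wt1 in 147 cells, Rspo1 in 79 and Cldn15 in 52, and Cldn15 had a log2 ratio of 1.43 over PBS fibroblasts. The whole list of 14 summed to 69.6 CPM in Chl1 fibroblasts, 126 CPM in LCWE fibroblasts without Chl1 and 46.3 CPM in PBS fibroblasts. A single LCWE fibroblast without Chl1 held 208 of the 378 UMIs of its group, and without the highest cell of each group the sums were 68.7, 57.1 and 31.3 CPM, so that the order of the LCWE groups turned. Smooth muscle markers summed to 117 CPM in Chl1 fibroblasts, 135 CPM in LCWE fibroblasts without Chl1 and 605 CPM in PBS fibroblasts.

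Leukocyte transcripts were present in the fibroblasts of the inflamed aorta. A UMI of Ptprc, the common leukocyte antigen, was found in 99 Chl1 fibroblasts (20.6%), in 53 LCWE fibroblasts without Chl1 (16.0%) and in 1 PBS fibroblast (0.115%). The 10 macrophage markers summed to 376 CPM in Chl1 fibroblasts, 330 CPM in LCWE fibroblasts without Chl1 and 27.4 CPM in PBS fibroblasts. The 9 granulocyte markers summed to 428, 436 and 78.4 CPM in the same order, close between the LCWE groups. The 9 matched T and NK cell markers stood at 89.2, 204 and 23.8 CPM in the same order. Haemoglobin genes had 16.8 UMIs per Chl1 fibroblast and 15.3 per LCWE lymphocyte, against 0.427 per PBS fibroblast. These transcripts move with the contrast to PBS fibroblasts, and their part in it was not tested.

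Where did the Chl1 fibroblasts fall when Chl1 itself was not used? Fibroblasts of both libraries were grouped on 2000 variable genes without Chl1, which gave 8 clusters. In 3 of these clusters under 2% of the cells were PBS cells. These clusters held 643 LCWE cells and 2 PBS cells, and they held 466 of the 481 Chl1 fibroblasts, 96.9% (94.9 to 98.2), and 177 of the 332 LCWE fibroblasts without Chl1, 53.3% (47.8 to 58.8). Of the 170 LCWE fibroblasts in the other clusters, which hold nearly all PBS fibroblasts, 15 had a Chl1 UMI, 8.82%. Of these 15, 10 were in a cluster of 23 LCWE cells and 1 PBS cell, where 43.5% had one. The clusters with 356, 347 and 158 PBS cells had Chl1 in 4 of 92, 1 of 29 and 0 of 18 LCWE cells. The 3 clusters with nearly no PBS cell had like shares of Chl1 fibroblasts, 71.1%, 75.0% and 70.6%, at 411, 197 and 331 CPM of Chl1 over their LCWE cells. With 1 library per group, clusters mostly of 1 library may reflect that library.

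**Figure D2:**
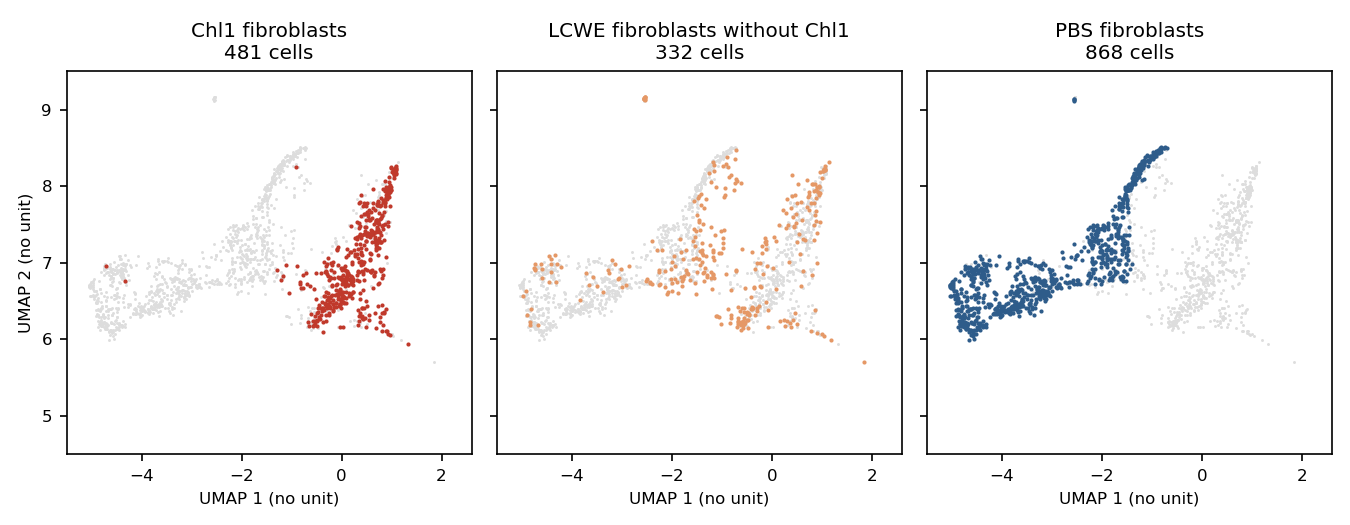
Each point is a fibroblast at its place in the UMAP that the authors deposited (no unit; Chl1 may have entered it), with 481 Chl1 fibroblasts, 332 LCWE fibroblasts without Chl1 and 868 PBS fibroblasts coloured in the 3 panels and all others in grey. Chl1 fibroblasts and PBS fibroblasts occupy different areas, LCWE fibroblasts without Chl1 lie in both, and 3, 1 and 2 cells of the groups lie outside the plotted range.

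Over LCWE fibroblasts without Chl1, 155 of 7993 genes with at least 50 UMIs in the higher group (1.94%) were at least 2-fold higher in Chl1 fibroblasts and 139 (1.74%) at least 2-fold lower, 3.68% together. Over PBS fibroblasts, 773 of 9445 genes (8.18%) were at least 2-fold higher and 686 (7.26%) at least 2-fold lower, 15.4% together. Between LCWE fibroblasts without Chl1 and PBS fibroblasts, 4.04% of 7919 genes were higher and 4.46% lower by that much, 8.5% together. The median log2 ratio over all genes was −0.02 over LCWE fibroblasts without Chl1 and 0.01 over PBS fibroblasts. All these contrasts use the cells and counts that the rule sorted, so the counts below describe the groups and test nothing.

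Acute phase genes, which fibroblasts and liver cells make in inflammation, were mostly higher in Chl1 fibroblasts. Set against LCWE fibroblasts without Chl1, 8 of the 13 measured genes were at least 2-fold higher and none lower, with a median log2 ratio of 1.42, and 10 were higher than in PBS fibroblasts, with a median of 3.86. Saa3 (chromosome 7, 46711998 to 46715700) stood at 2047 CPM (2013 to 2081) in Chl1 fibroblasts, 428 CPM in LCWE fibroblasts without Chl1 and 0.164 CPM, a single UMI, in PBS fibroblasts. It was 4.78-fold (4.51 to 5.07) higher than in LCWE fibroblasts without Chl1. Hp, haptoglobin, which binds free haemoglobin, stood at 1268, 223 and 13.6 CPM in the same order, 5.70-fold (5.26 to 6.17) higher than without Chl1 and 92.9-fold (74.9 to 117) higher than in PBS fibroblasts. Lcn2, lipocalin 2, which binds bacterial iron carriers, stood at 402 CPM in Chl1 fibroblasts, 60.1 CPM in LCWE fibroblasts without Chl1 and 0.657 CPM in PBS fibroblasts, and was 6.70-fold (5.76 to 7.83) higher than without Chl1. All 3 thus had their highest level in Chl1 fibroblasts, with a lower one in the other LCWE fibroblasts and little in PBS fibroblasts.

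The secreted proteins Lrg1, Kng2 and Serpina3n of this list stood in the same order, and Mt2 did not. Lrg1, a leucine-rich glycoprotein that modifies TGF-β signals, stood at 84.6 CPM in Chl1 fibroblasts and 21.4 CPM in LCWE fibroblasts without Chl1, 3.96-fold (3.06 to 5.21) higher, and had 1 UMI in PBS fibroblasts. Kng2, a kininogen, from which bradykinin is cut, stood at 83.1 and 31.0 CPM in the LCWE groups and had 2 UMIs in PBS fibroblasts. The metallothionein Mt2, which binds metals inside the cell, was 2.04-fold (1.95 to 2.13) higher in Chl1 fibroblasts than in LCWE fibroblasts without Chl1, at 1815, 891 and 967 CPM in the 3 groups, a log2 ratio of 1.03 that was 0.99 without cells holding a Ptprc UMI. Serpina3n, a protease inhibitor, was 1.55-fold higher than without Chl1 but 14.5-fold (13.2 to 15.9) higher than in PBS fibroblasts, at 1087, 703 and 75.1 CPM. In the LCWE lymphocytes, which show the level of free RNA, Saa3 stood at 23.9 CPM, Lcn2 at 22.8 CPM and Hp at 25.6 CPM.

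The acute phase transcripts were spread unevenly among the Chl1 fibroblasts. A Saa3 UMI was found in 266 of the 481 cells (55.3%), and the 49 cells with the most held 73.4% of the Saa3 UMIs. For Lcn2 the share of cells was 51.8% and the top 49 cells held 80.4% of the UMIs, and for Hp the shares were 81.3% and 57.0%. For Chl1, of which the rule gives each cell at least 1 UMI, the top 49 cells held 37.0%. Saa3 was found in 73.5% of the Chl1 fibroblasts that had Lcn2 and in 35.8% of those that had none. A deeper cell has more of every gene, so that detection of 2 genes in the same cell also follows depth.

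The other markers differed in how they followed Chl1. Crocc2 (chromosome 1, 93168725 to 93231072) stood at 56.1 CPM (50.7 to 61.9) in Chl1 fibroblasts, 13.3 CPM in LCWE fibroblasts without Chl1 and, with 2 UMIs, 0.329 CPM in PBS fibroblasts, and was 4.20-fold (3.03 to 5.97) higher than without Chl1. Wt1 (chromosome 2, 105126529 to 105173616) stood at 39.9 CPM in Chl1 fibroblasts, 25.0 CPM in LCWE fibroblasts without Chl1 and 6.41 CPM in PBS fibroblasts, 1.60-fold (1.23 to 2.09) and 6.23-fold (4.44 to 8.95) higher. En1 (chromosome 1, 120602418 to 120607992) had 96 UMIs in Chl1 fibroblasts, 21 in LCWE fibroblasts without Chl1 and 0 in PBS fibroblasts, so that it was 1.96-fold (1.21 to 3.31) higher than without Chl1 and at least 27.9-fold higher than in PBS fibroblasts by a floor of 3 UMIs over the group. Thinned to 4000 UMIs, at least 1 of Crocc2, Wt1, En1 and Saa3 was found in 61.4% of 456 Chl1 fibroblasts, 25.0% of 252 LCWE fibroblasts without Chl1 and 3.06% of 621 PBS fibroblasts. Of the 456 Chl1 fibroblasts, 209 had 1 of the 4, 65 had 2, 6 had 3, 0 had all 4 and 176 had none. At full depth Crocc2, Wt1 and En1 were found in 23.1%, 30.6% and 11.9% of all Chl1 fibroblasts. The 49 cells with the most held 80.4%, 57.0% and 91.7% of their UMIs.

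**Figure D3:**
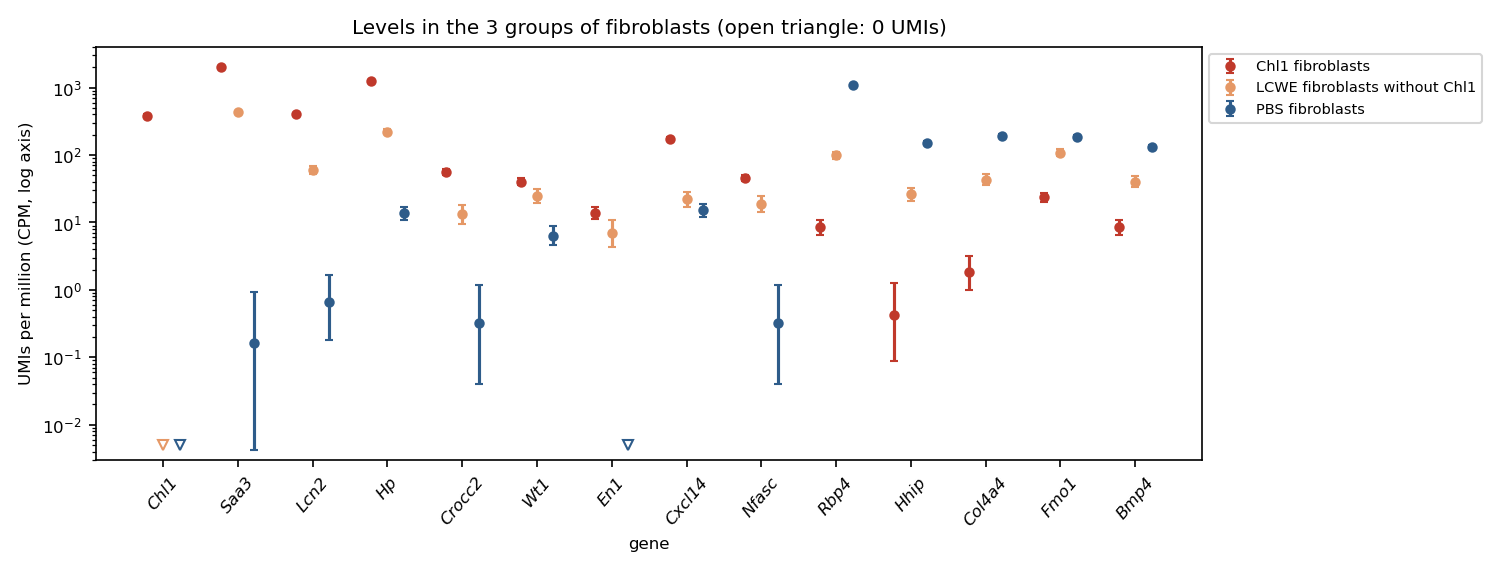
Points give the level of each gene in CPM (log axis) in Chl1 fibroblasts, LCWE fibroblasts without Chl1 and PBS fibroblasts, with 95% Poisson intervals, and open triangles mark 0 UMIs. Saa3, Lcn2, Hp and Crocc2 are highest in Chl1 fibroblasts, at 2047, 402, 1268 and 56.1 CPM, while Rbp4, Hhip and Col4a4 are highest in PBS fibroblasts, at 1088, 149 and 191 CPM.

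Did these genes separate cells with Chl1 from cells without it, or only the clusters that held them? The LCWE fibroblasts without Chl1 were divided into the 177 cells in the clusters with nearly no PBS cell and the 155 in the others. The others include the cluster of 23 LCWE cells and 1 PBS cell. This division cannot decide the question. Only Chl1 was kept out of the clustering, so the genes compared here may have helped to draw the clusters. The 177 cells had a median of 9347 UMIs, against 14431 in Chl1 fibroblasts, and some may hold Chl1 that was not captured. Saa3 stood at 2047 CPM in Chl1 fibroblasts, 685 CPM in the 177 cells and 8.78 CPM in the 155 cells. Crocc2 stood at 56.1, 11.8 and 15.8 CPM in that order, and Cxcl14 at 174, 29.1 and 10.5 CPM. With the Chl1 fibroblasts also limited to the 466 in those clusters, Saa3 stood at 2031 CPM in them and 685 CPM in the 177 cells, 2.96-fold (2.80 to 3.14) higher, Crocc2 was 4.75-fold (3.09 to 7.66) higher and Cxcl14 6.15-fold (4.69 to 8.24) higher. Wt1 stood at 39.9 CPM in Chl1 fibroblasts, 35.5 CPM in the 177 cells and 7.91 CPM in the 155 cells. Its ratio over the 177 cells was 1.12, with an interval (0.857 to 1.49) that includes 1. However, 15 of the 66 Wt1 UMIs of the 177 cells were in 1 cell, the one richest in mesothelial UMIs. The Wt1 ratio without that cell was not computed, so the closeness of the 2 levels may rest on it. Col15a1, a basement membrane collagen, stood at 162, 156 and 614 CPM in the same order of groups. Against the 177 cells, 132 of 7028 genes (1.88%) were at least 2-fold higher and 43 (0.612%) at least 2-fold lower in Chl1 fibroblasts, and against the 155 cells 566 of 6140 (9.22%) were higher and 170 (2.77%) lower.

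The cells just inside and just outside the rule were as follows. Saa3 stood at 428 CPM in cells with 0 Chl1 UMIs, 645.5 CPM with 1, 965 CPM with 2 and 2678 CPM with 3 or more. Crocc2 stood at 13.3, 46.2, 60.0 and 57.9 CPM over the same steps, and En1 at 7.01, 19.1, 17.5 and 11.4 CPM. Rbp4, which carries retinol, stood at 98.8, 23.9, 4.61 and 5.38 CPM. Saa3 was thus highest in the cells with the most Chl1, while the intervals of Crocc2 and En1 overlapped between cells with 1, 2 and more Chl1 UMIs.

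The 708 LCWE fibroblasts with at least 4000 UMIs were thinned to 4000 UMIs each, so that each share rests on the same UMIs per cell. Cells that were deeper before thinning may still differ in their transcripts, and this was not tested. Of the 708 cells, 399 had 0 Chl1 UMIs left, 125 had 1, 81 had 2 and 103 had 3 or more. A Saa3 UMI was found in 23.6%, 38.4%, 45.7% and 68.9% of them. The 399 cells include Chl1 fibroblasts that lost their Chl1 UMIs in thinning. Only 252 of the 708 were LCWE fibroblasts without Chl1, and of those 16.7% had a Saa3 UMI at this depth. For Lcn2 the shares were 16.0%, 27.2%, 28.4% and 45.6%, and for Cxcl14 6.27%, 16.8%, 25.9% and 30.1%. Cpe, a peptide hormone processing enzyme, was found in 22.6%, 6.40%, 4.94% and 2.91%. The adventitial fibroblast gene Pi16 was found in 84.2%, 86.4%, 91.4% and 90.3%, and its fellow marker Dpp4 in 22.3%, 16.8%, 16.0% and 7.77%. Cells with more Chl1 thus held Saa3, Lcn2 and Cxcl14 more often and Cpe and Dpp4 less often, while the intervals of the Pi16 shares overlapped.

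**Figure D4:**
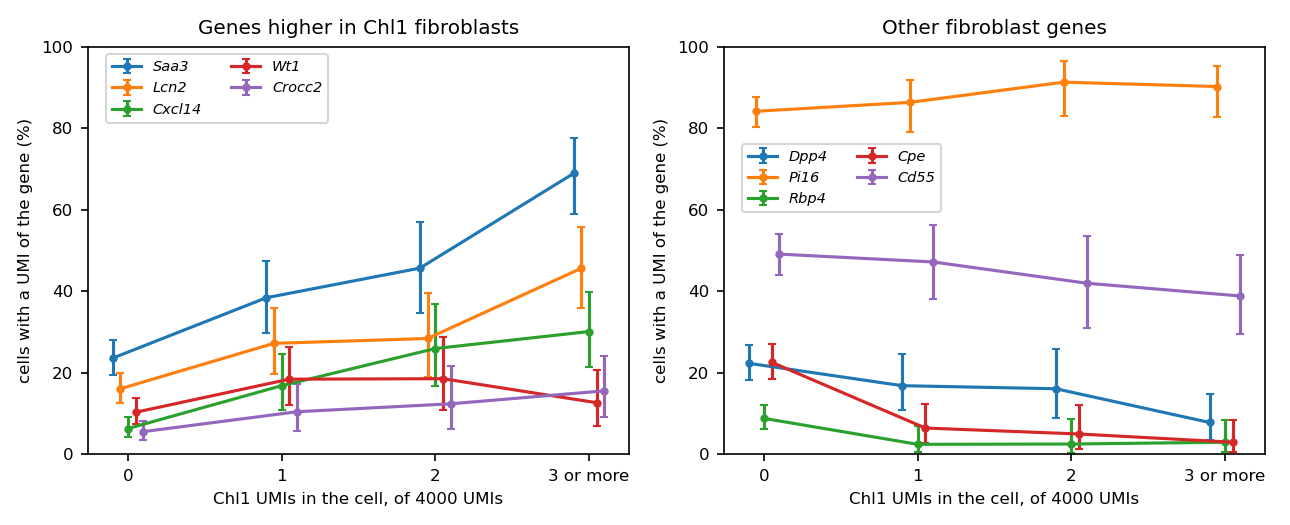
Lines join the shares of LCWE fibroblasts with a UMI of each gene, with 95% Clopper-Pearson intervals, by the Chl1 UMIs left after thinning each cell to 4000 UMIs. Cells with fewer than 4000 UMIs were left out. Saa3 stands at 23.6% with 0 Chl1 UMIs left and 68.9% with 3 or more, and Cpe at 22.6% and 2.91%. The cells with 0 left include Chl1 fibroblasts.

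Other genes of signalling, adhesion and inhibition were higher in Chl1 fibroblasts than in LCWE fibroblasts without Chl1. Cxcl14 (chromosome 13, 56288643 to 56296551), a chemokine that epithelia and fibroblasts make, stood at 174 CPM (165 to 184) in Chl1 fibroblasts, 22.0 CPM in LCWE fibroblasts without Chl1 and 15.1 CPM in PBS fibroblasts, 7.91-fold (6.18 to 10.3) and 11.5-fold (9.32 to 14.4) higher. It was found in 28.5% of Chl1 fibroblasts, and the 49 cells with the most held 84.6% of its UMIs. Serpinb2, an inhibitor of plasminogen activators, had 257, 20 and 0 UMIs and was found in 7.28% of the Chl1 fibroblasts, so that its 5.51-fold (3.49 to 9.17) ratio rests on few cells. Wnt4, a secreted Wnt ligand, stood at 46.7, 14.0 and 4.77 CPM, 3.33-fold (2.41 to 4.71) higher than without Chl1. Il33, an alarmin of stromal cell nuclei, stood at 675 CPM in Chl1 fibroblasts, 300.3 CPM in LCWE fibroblasts without Chl1 and 95.2 CPM in PBS fibroblasts, 2.25-fold (2.09 to 2.42) and 7.09-fold (6.51 to 7.75) higher. Dlgap1, a scaffold protein of synapses, stood at 21.9, 6.67 and 3.78 CPM. Tnfsf8, the ligand of CD30, stood at 31.5 CPM in Chl1 fibroblasts and 7.34 CPM in LCWE fibroblasts without Chl1, but also at 29.1 CPM in LCWE lymphocytes, and the part of free or leukocyte RNA in it was not tested. Emb and Laptm5, which ranked high over PBS fibroblasts, stood at 159 and 62.0 CPM in Chl1 fibroblasts and at 495 and 654 CPM in LCWE lymphocytes.

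Chemokine genes were higher in part. Set against LCWE fibroblasts without Chl1, 5 of 14 measured genes were at least 2-fold higher and none lower (median log2 ratio 0.60), and over PBS fibroblasts 8 of 15 were higher and 1 lower (median 1.03). Cxcl13, which attracts B cells, stood at 234 CPM in Chl1 fibroblasts, 85.1 CPM in LCWE fibroblasts without Chl1 and 35.2 CPM in PBS fibroblasts, 2.75-fold (2.41 to 3.15) higher than without Chl1. Cxcl10, a ligand of CXCR3 on T cells, stood at 166, 54.4 and 81.5 CPM, 3.05-fold (2.59 to 3.62) higher than without Chl1. Cxcl13 was found in 23.5% and Cxcl10 in 33.9% of Chl1 fibroblasts, and the 49 cells with the most held 93.0% and 75.7% of their UMIs. Cxcl12, the ligand of CXCR4, stood at 1562, 1091 and 344 CPM, and Cxcl2, which attracts neutrophils, at 474, 337 and 59.8 CPM. The last pair was higher over PBS fibroblasts, 4.54-fold (4.33 to 4.76) and 7.93-fold (7.11 to 8.86), and less than 2-fold higher than in LCWE fibroblasts without Chl1.

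Complement genes separated the libraries more than the Chl1 groups. Over PBS fibroblasts, 9 of 14 members were above 2-fold and 3 below (median log2 ratio 1.42), and over LCWE fibroblasts without Chl1, 3 of 13 were above and 0 below (median 0.44). C3, the central component, stood at 7781 CPM in Chl1 fibroblasts, 5082 CPM in LCWE fibroblasts without Chl1 and 1580.4 CPM in PBS fibroblasts. C4b stood at 1842, 1201 and 109.6 CPM, 16.8-fold (15.5 to 18.2) higher than in PBS fibroblasts. The highest ratio in the list, that of Cfd, came from 1 cell, which held 93.4% of the Cfd UMIs of the Chl1 fibroblasts together with 43 UMIs of the fat cell gene Cidec and 19 of Chl1.

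Interferon genes were higher in part over LCWE fibroblasts without Chl1, and most were higher over PBS fibroblasts. Of 18 measured genes of the type I interferon response, 6 were at least 2-fold higher than in LCWE fibroblasts without Chl1 (median log2 ratio 0.71) and 17 higher than in PBS fibroblasts (median 2.12). Ifit1, an inhibitor of viral RNA translation, stood at 220.1 CPM in Chl1 fibroblasts, 80.4 CPM in LCWE fibroblasts without Chl1 and 37.3 CPM in PBS fibroblasts, 2.74-fold (2.39 to 3.15) and 5.90-fold (5.13 to 6.81) higher. Isg15, a ubiquitin-like protein, stood at 244, 125 and 55.2 CPM, and Ifitm1, a membrane protein that blocks viral entry, at 193, 60.1 and 5.09 CPM. Ifi44 had 202 UMIs in Chl1 fibroblasts, 25 in LCWE fibroblasts without Chl1 and 2 in PBS fibroblasts. Rsad2, the antiviral enzyme viperin, named after its values were seen, stood at 79.3, 7.34 and 2.47 CPM, but 25.5% of its UMIs came from 1 Chl1 fibroblast. Of 13 genes of the interferon gamma response, 3 were higher and none lower than without Chl1 (median 0.64), among them the GTPase Iigp1 at 133, 57.1 and 58.3 CPM. Over PBS fibroblasts 8 of these 13 were higher and 2 lower (median 1.04), the lower ones being Irf1 at 96.6, 117 and 212 CPM and Socs1 at 45.5, 47.1 and 145 CPM. The 6 measured MHC class II genes were all at least 2-fold higher than in PBS fibroblasts (median 5.70), with none at least 2-fold higher than in LCWE fibroblasts without Chl1. Their Cd74, the class II invariant chain, had a log2 ratio over PBS fibroblasts of 6.91, which was 4.71 without the cells that held a Ptprc UMI. The class II list summed to 696 CPM in Chl1 fibroblasts and 814 CPM in LCWE lymphocytes, or 10.1 and 3.84 UMIs per cell. The 49 Chl1 fibroblasts with the most held 92.0% of the Cd74 UMIs and, for H2-Aa, 93.3%. H2-Aa was found in 23.1% of Chl1 fibroblasts. The part of free or leukocyte RNA in these genes was not tested.

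Receptors for inflammatory cytokines differed less. None of 20 was at least 2-fold higher than in LCWE fibroblasts without Chl1 (median log2 ratio 0.38), and 7 of 21 were higher than in PBS fibroblasts (median 0.68). Il1r1, the signalling receptor for IL-1, stood at 209 CPM in Chl1 fibroblasts, 114 CPM in LCWE fibroblasts without Chl1 and 50.5 CPM in PBS fibroblasts, 1.84-fold (1.63 to 2.07) and 4.15-fold (3.66 to 4.71) higher. Il1r2, the decoy receptor, stood at 29.5, 22.4 and 2.63 CPM, 11.2-fold (6.74 to 19.98) higher than in PBS fibroblasts. Osmr, the oncostatin M receptor, stood at 171, 110.5 and 69.0 CPM, and Tnfrsf1b, a TNF receptor, at 64.5, 40.7 and 6.74 CPM. Nod1, a sensor of cell wall peptidoglycan, stood at 42.2 CPM in Chl1 fibroblasts, 21.7 CPM in LCWE fibroblasts without Chl1 and 22.7 CPM in PBS fibroblasts, 1.95-fold (1.48 to 2.59) and 1.86-fold (1.52 to 2.30) higher. Of 15 targets of NF-kB, none was at least 2-fold higher than without Chl1 (median 0.30), and of 14 targets of STAT3, 1 was (median 0.39).

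Relatives and partners of CHL1 were measured too. Of 7 members of the L1 family and its partners with enough UMIs besides Chl1, 2 were at least 2-fold higher than in LCWE fibroblasts without Chl1, 2 were higher than in PBS fibroblasts, and none was lower in either. Nfasc, neurofascin, an L1 family protein, stood at 45.5 CPM in Chl1 fibroblasts and 19.0 CPM in LCWE fibroblasts without Chl1, 2.39-fold (1.80 to 3.23) higher, with 2 UMIs in PBS fibroblasts. Ank3, ankyrin G, which anchors such proteins to the cytoskeleton, stood at 45.9, 18.4 and 8.71 CPM, 2.50-fold (1.88 to 3.40) and 5.27-fold (3.93 to 7.19) higher. The partners Nrp1, at 349, 374 and 389 CPM, and Itgb1, at 270.2, 297 and 277 CPM, were close in the 3 groups. Ezr, ezrin, stood at 22.0, 33.4 and 26.8 CPM, with 251 CPM in LCWE lymphocytes. L1cam itself had 10 UMIs in all Chl1 fibroblasts.

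Basement membrane genes were lower in part in Chl1 fibroblasts. Of 15 measured members, 5 were at least 2-fold lower than in LCWE fibroblasts without Chl1 and none higher (median log2 ratio −0.70), and 10 of 17 were lower and none higher than in PBS fibroblasts (median −1.42). The laminin chain gene Lamb1 stood at 176, 159 and 99.6 CPM in Chl1 fibroblasts, LCWE fibroblasts without Chl1 and PBS fibroblasts, under 2-fold in both contrasts. Col4a4 (chromosome 1, 82448423 to 82586849) stood at 1.86 CPM in Chl1 fibroblasts, 43.4 CPM in LCWE fibroblasts without Chl1 and 191 CPM in PBS fibroblasts, 23.3-fold (13.2 to 45.0) and 102-fold (59.7 to 193) lower. Col4a3, its neighbour on the opposite strand, which encodes a chain of the same collagen IV trimer, had 0, 28 and 452 UMIs, at least 21.8-fold and at least 173-fold lower. Col4a5, the remaining chain of that trimer, stood at 37.1, 160.2 and 472 CPM, 4.32-fold (3.71 to 5.05) and 12.7-fold (11.2 to 14.5) lower. Col4a6 stood at 4.58, 42.7 and 142 CPM. The laminin gene Lamc3 had 0, 19 and 469 UMIs, at least 14.8-fold and at least 179.5-fold lower. Col4a1, a chain of the widespread collagen IV, differed less, at 209, 341 and 557 CPM.

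Genes that mark fibroblasts of the control aorta were low. Rbp4 (chromosome 19, 38116629 to 38125281) stood at 8.59 CPM (6.55 to 11.1) in Chl1 fibroblasts, 98.8 CPM in LCWE fibroblasts without Chl1 and 1088 CPM in PBS fibroblasts, 11.5-fold (8.69 to 15.4) and 127-fold (98.3 to 166) lower. Hhip, an inhibitor of hedgehog ligands, had 3, 79 and 909 UMIs, 61.4-fold (20.3 to 304) and 348-fold (119 to 1691) lower. Tnmd, tenomodulin, had 0, 15 and 173 UMIs. Bmp4, a growth factor of the TGF-β family, stood at 8.59, 40.4 and 132 CPM, and Cav1, caveolin 1, at 20.04, 92.1 and 115 CPM. Apod, a lipid carrier, stood at 71.0 CPM in Chl1 fibroblasts, 552 CPM in LCWE fibroblasts without Chl1 and 116 CPM in PBS fibroblasts, so that it was highest in the LCWE fibroblasts without Chl1, and within them in the 155 cells outside the clusters with nearly no PBS cell, at 1317 CPM. Hmcn2, a hemicentin, was likewise highest there, at 9.73, 50.4 and 20.4 CPM in the 3 groups. Fmo1, a flavin monooxygenase, was low in Chl1 fibroblasts against both parts of that division, at 23.5 CPM, against 112 CPM in the 177 cells and 104 CPM in the 155.

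Of 8 measured genes of parenchymal fibroblasts, 6 were at least 2-fold lower and 1, Cxcl14, higher than in LCWE fibroblasts without Chl1 (median log2 ratio −1.31), and 7 of 10 were lower than in PBS fibroblasts (median −2.40). Penk, proenkephalin, stood at 30.1, 80.8 and 185 CPM, and the matrix protein gene Smoc2 at 197, 453 and 521 CPM. For all Chl1 fibroblasts against the 177 cells without Chl1 in the clusters with nearly no PBS cell, the median of this list was −0.004, and that of the TGF-β response 0.017. Adventitial progenitor genes were closer between the groups, with 0 of 14 at least 2-fold different from LCWE fibroblasts without Chl1 (median 0.06) and 4 higher than in PBS fibroblasts (median 0.56). Ly6a, the stem cell antigen Sca-1, stood at 3602, 2744 and 1377 CPM, and Cd55, a complement inhibitor, at 370.2, 318 and 136 CPM.

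TGF-β genes were lower in part, and matrix genes went both ways against PBS fibroblasts. Of 11 genes of the TGF-β response, 4 were at least 2-fold lower than in LCWE fibroblasts without Chl1 (median log2 ratio −0.58) and 6 of 12 lower than in PBS fibroblasts (median −1.45). Tgfbi, a secreted matrix protein that TGF-β induces, stood at 123 CPM in Chl1 fibroblasts, 367 CPM in LCWE fibroblasts without Chl1 and 855 CPM in PBS fibroblasts, 2.98-fold (2.72 to 3.26) and 6.95-fold (6.47 to 7.48) lower. Of 18 elastic fibre genes, 4 were lower and none higher than without Chl1 (median −0.01). Against PBS fibroblasts 4 of them were higher and 5 lower (median 0.12). Eln, elastin, stood at 504, 1534 and 4287 CPM, 3.04-fold (2.91 to 3.18) and 8.51-fold (8.21 to 8.81) lower, while Fbln2, fibulin 2, stood at 642, 594 and 180.5 CPM. Of 19 genes of fibrillar collagens and their matrix, 1 was lower and none higher than without Chl1. Of 20 measured against PBS fibroblasts, 4 were higher and 5 lower (median −0.29). The injury-linked matrix genes Postn, at 1242, 1438 and 459.5 CPM, and Cthrc1, at 273, 302 and 35.5 CPM, were higher than in PBS fibroblasts and close between the LCWE groups.

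Retinoid genes went both ways. Against LCWE fibroblasts without Chl1, 2 of 10 measured genes were at least 2-fold higher and 1, Rbp4, lower. Rdh10, which oxidises retinol, stood at 119.6 CPM in Chl1 fibroblasts, 51.4 CPM in LCWE fibroblasts without Chl1 and 21.2 CPM in PBS fibroblasts, 2.33-fold (1.96 to 2.78) and 5.64-fold (4.68 to 6.85) higher. Aldh1a2, which makes retinoic acid and was named after its values were seen, stood at 113, 37.7 and 4.93 CPM, 2.99-fold (2.45 to 3.67) and 22.8-fold (15.9 to 34.1) higher. Also named after their values were seen were the fibrillin Fbn2, at 118, 72.7 and 1.64 CPM, and the lubricin gene Prg4, at 213, 111 and 3.62 CPM, which differed mainly from PBS fibroblasts. Of 13 measured Hox genes, Hoxd9 alone was at least 2-fold different from LCWE fibroblasts without Chl1, with 55 UMIs in Chl1 fibroblasts, 6 in LCWE fibroblasts without Chl1 and 27 in PBS fibroblasts.

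Some of these ratios depended on which cells were compared, and they are given here as log2 ratios over LCWE fibroblasts without Chl1. With all 481 Chl1 fibroblasts set against the 177 such cells in the clusters with nearly no PBS cell, Il33 stood at 0.77 instead of 1.17, Ifit1 at 0.94 instead of 1.45, Iigp1 at 0.86 instead of 1.22, Nfasc at 0.88 instead of 1.26, Rdh10 at 0.80 instead of 1.22 and Tgfbi at −0.86 instead of −1.58, all under 2-fold. Apod stood at −0.22 there instead of −2.96 and Penk at −0.004 instead of −1.43. In cells with at least 10000 UMIs, of which 341 were Chl1 fibroblasts, 112 LCWE fibroblasts without Chl1 and 197 PBS fibroblasts, Rdh10 stood at 0.92, Penk at −0.86 and Smoc2 at −0.82 instead of −1.20, also under 2-fold. Rbp4 remained lower in those deep cells, at −2.70 instead of −3.52, as did Cpe at −2.14 instead of −2.94 and Hhip at −3.77 instead of −5.94. Without the cells that held a Ptprc UMI the ratios of Saa3, Lcn2 and Crocc2 were higher, at 2.99, 3.43 and 2.80 instead of 2.26, 2.74 and 2.07.

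**Figure D5:**
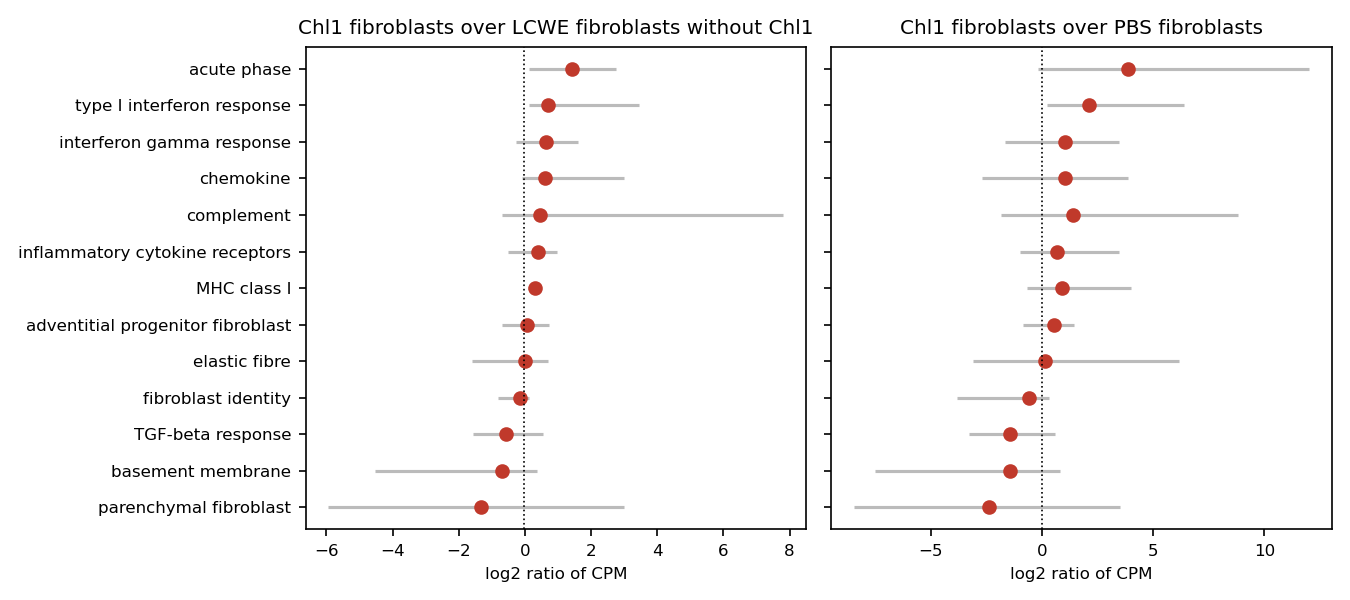
Each row is a gene list, with the median log2 ratio of its measured members (point) and their range (line) for Chl1 fibroblasts over LCWE fibroblasts without Chl1 (left) and over PBS fibroblasts (right), and the dotted line is the median over all genes. The 13 lists shown were picked from 46 after their values were seen, and others had more extreme medians. Acute phase genes have medians of 1.42 and 3.86, and parenchymal fibroblast genes of −1.31 and −2.40.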

How the data were processed

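Single-cell RNA was measured in 1 pooled library of 5091 LCWE cells and 1 of 5386 PBS cells. Per the submitters' processing notes, Cell Ranger 3.0.2 and mm10 were used. The matrix deposited by the authors holds UMI counts, not normalized, and the authors' table of cells gives the cell classes used here, the percent of mitochondrial UMIs the UMAP coordinates plotted here and a doublet score from a caller not given in the sources used here. The joint matrix and the tables of the single libraries were compared in 293335046 entries, and 0 differ.

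The members and the gene lists were chosen with earlier results of these data known. UMIs were summed per group and scaled to the total UMIs of the group (CPM). Intervals at 95% are Poisson for levels, Clopper-Pearson for shares and conditional binomial for ratios, and cover counting error only. Ratios against 0 UMIs use a floor of 3 UMIs over the group. A gene was counted as different when at least 2-fold apart with at least 50 UMIs in the higher group. For cells, no filter or doublet caller was added. Leiden clusters (resolution 0.5, 30 components, 15 neighbours) used log-normalised counts. The ratios were also run on simulated Poisson counts. Those counts lack the uneven spread over cells seen here, so the run does not show that the intervals hold for these data.

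Named genes are the markers, the 12 highest and 12 lowest ratios of each comparison and up to 4 members per list. Ranked genes needed at least 100 UMIs in the higher group, an interval beyond 1.5-fold, no cell with over 20% of these UMIs, and a CPM of 5% or more of that in the class richest in the gene. Mitochondrial, ribosomal, haemoglobin, antigen receptor, sex-linked and leukocyte marker genes were excluded from the ranks. The text gives a part of these genes, picked after their values were seen. Of 598 listed symbols in 46 lists, 592 were matched, and positions were found for 207 of 208 named symbols.

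Alternatives were thinning to 4000 UMIs per cell, 2 or more Chl1 UMIs, other filters, floors, scalings and resolutions, and cells left out by Ptprc, mitochondrial share or depth. Python 3.11.15, NumPy 2.4.6, SciPy 1.17.1, pandas 2.3.3, scanpy 1.11.5, scikit-learn 1.9.0, igraph 0.11.9, leidenalg 0.10.2 and matplotlib 3.10.9 were used.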

Additional observations from a re-analysis of the deposited data

How the results depend on the processing

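Chl1 fibroblasts were 59.2% of the LCWE fibroblasts, 45.5% when 2 or more Chl1 UMIs were asked for and 43.6% with cells thinned to 4000 UMIs. Their share in clusters with nearly no PBS cell was 96.9%, and 92.9% at resolution 1. The counts of genes moved with depth, with the filter on low counts and with the choice of cells without Chl1. The 155 genes at least 2-fold higher than in LCWE fibroblasts without Chl1 became 98 after thinning, 310 with at least 20 UMIs, 391 with no filter and 566 against the cells in the other clusters. The 139 lower genes became 68 after thinning, 259 with at least 20 UMIs, 3764 with no filter, 43 against the cells in the clusters with nearly no PBS cell and 65 in cells with at least 10000 UMIs. The 773 genes higher than in PBS fibroblasts became 386, 1173 and 1688 under thinning, at least 20 UMIs and no filter, and the 686 lower ones became 1457 with no filter. Few ratios of named genes that were at least 2-fold turned round, but more fell under 2-fold. Against the cells without Chl1 in the clusters with nearly no PBS cell, 22 did so. In cells with at least 10000 UMIs 23 did so, and with the mean of single-cell CPM 13. After thinning 12 did so, without cells with a Ptprc UMI 8, and under each other setting fewer. The log2 ratio of Ccl5 over LCWE fibroblasts without Chl1 was −1.04, but 1.38 against those in the clusters with nearly no PBS cell. Over PBS fibroblasts it was 1.35, but −1.04 without cells with a Ptprc UMI and −0.032 in cells with at least 10000 UMIs. Col15a1 over LCWE fibroblasts without Chl1 was −1.03, but 0.058 against those in these clusters and −0.43 in deep cells. Csf1r over PBS fibroblasts was −0.71 without Ptprc cells, and Fabp4 was −2.05 without the cell that held most Cfd. The median of the mesothelial list over PBS fibroblasts was −0.31 with no filter. Apod over PBS fibroblasts was −0.70, but 0.76 in cells with at least 10000 UMIs. The cause was not tested for any of these. The choice of the cells with at least 10000 UMIs, of the cluster split and of the cells with most Cfd or most mesothelial UMIs was made after seeing the data.

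No paired analysis was possible because each group is 1 pooled library, and for the same reason leaving out a replicate was not possible. The spread between animals is unknown, the Chl1 fibroblasts held more UMIs per cell than both other groups, and free RNA and leukocyte transcripts were not removed.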
